A study of Mus musculus with 6 samples.

Results

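The 10 mouse genes of the BATF, FOS and JUN families, Batf, Batf2, Batf3, Fos, Fosb, Fosl1, Fosl2, Jun, Junb and Jund, were followed in Th9 cells with and without IRF1. They are grouped by family membership, as partners of IRF4 and IRF8 on DNA, and were 10 of the 41388 genes in the table. RNA was compared between 3 WT and 3 Irf1-/- cultures, the latter from Irf1-deficient mice, all on a C57BL/6 background and 8 to 12 weeks old according to the methods. T cells from spleen and lymph nodes, naive CD4+ cells according to the methods, were kept for 2 days with IL-2, IL-4, TGF-β and IFN-γ at 5 ng per ml, and the methods add antibodies to CD3, CD28 and mouse IFN-γ. Every culture received IFN-γ, so the comparison was between genotypes within IFN-γ-treated cells and held no untreated group. The labels did not say whether the 3 libraries of a group came from separate animals, while the paper calls them independent biological samples.

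BATF, FOS and JUN proteins share a basic leucine zipper (bZIP), through which they pair and grip DNA. FOS and BATF proteins pair with a JUN protein, and the pair binds the AP-1 site, a target of T-cell receptor and costimulatory signals. BATF and BATF3 lack the transactivation domain of FOS, and with JUN proteins they recruit IRF4 or IRF8 to composite DNA elements at many genes of activated T helper cells. Fos, Fosb, Jun and Junb are early response genes whose RNA is short-lived, whereas BATF and BATF3 are known for their part in T helper and dendritic cell differentiation.

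The values were normalized counts, that is, reads per gene after division by the library's size factor. The libraries held 5639788 to 13348230 reads on genes, and 3 reads, the limit used here for a gene with no reads, equalled a normalized count of 1.84 to 4.16. The targeted gene, Irf1, stood at 2968, 2907 and 2659.8 in WT and at 1780.2, 1729 and 1476 in Irf1-/- libraries (log2 fold change -0.78, adjusted p = 7.32e-05, limma). Irf1 RNA was thus lower in every Irf1-/- library but still present, and counts over the whole gene do not show which exons were deleted. CD4 T-cell markers were high in all libraries, with a summed level of 15131 to 15563 in WT and 14658 to 15032 in Irf1-/- libraries. The summed markers of other cells were 32.4 to 41.2 and 20.3 to 30.7 for CD8 T cells, 20.0 to 26.4 and 23.0 to 40.2 for B cells, and 22.1 to 47.4 and 30.7 to 34.6 for dendritic cells, with the dendritic marker Clec9a at 0 throughout. Myeloid markers summed to 111 to 259.7 in WT and 35.8 to 1049.8 in Irf1-/- libraries, where Irf1-/- replicate 2 held Lyz2 at 559 and Cd14 at 334. Mpeg1, the one called gene of that list, was lower in Irf1-/- cells, at 89.9, 110.6 and 80.5 in WT and 60.9, 56.9 and 19.8 in Irf1-/- libraries (adjusted p = 0.0367, limma). The call of Mpeg1 was lost without WT replicate 1 or 2 and in some other fits. NK-cell markers summed to 347 to 498 in WT and 223 to 236 in Irf1-/- libraries, nearly all of it Nkg7, while Ncr1, Klrb1c and Klra8 were at 0 in all libraries. WT replicates 1 and 2 carried Y-linked RNA (summed level 2301 and 2306) and Xist at 2.50 and 6.01, whereas the other 4 libraries held Xist at 16974 to 19404 and Y-linked RNA at no more than 11.1. The methods call the mice sex-matched, yet both libraries with Y-linked RNA were WT, so that sex and genotype cannot be fully told apart here. Results are therefore also given for the 4 libraries with Xist, among which WT has 1 library.

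The reference promoter table held 8 of the 10 genes, all but Batf2 and Fosl1, as windows from 250 bases before to 50 bases after the RefSeq start. Stretches are printed for Batf, Batf3 and Fosl2, which rose in Irf1-/- cells, to show where interferon motifs occurred near their starts. They are on the plus strand of GRCm38.p6 (RefSeq), up to the first annotated UTR base for Batf and Batf3. Capitals mark matches to the core of the interferon-stimulated response element, GAAANNGAA, bound by IRF proteins, or to the GAS element, TTCNNNGAA, on either strand.
Batf, chr12:85686470-85686668: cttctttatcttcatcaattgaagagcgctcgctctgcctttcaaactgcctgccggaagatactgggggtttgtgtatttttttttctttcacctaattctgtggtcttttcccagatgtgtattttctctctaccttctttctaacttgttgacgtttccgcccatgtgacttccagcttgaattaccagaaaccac
Batf3, chr1:191098164-191098324: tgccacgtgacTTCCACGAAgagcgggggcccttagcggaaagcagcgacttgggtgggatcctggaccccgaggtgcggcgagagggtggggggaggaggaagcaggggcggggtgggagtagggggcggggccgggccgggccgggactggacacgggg
Fosl2, chr5:32136222-32136240: GAAACAGAAgtttctccca
Fosl2, chr5:32136242-32136270: ccggcagcttTTCTTTTTCgcctttttgg
The Batf stretch of 199 bases held neither motif. Batf3 held 1 GAS match, 239 bases before its RefSeq start and inside an exon of non-coding Batf3 transcripts. Fosl2 held 2 response-element matches, at 250 and 220 bases before its RefSeq start, within the first exon of a longer Fosl2 transcript. Over the whole 300-base windows, GAAANNGAA occurred in 8.56% and TTCNNNGAA in 8.30% of all 32851 promoters. Among the 8 genes, GAAANNGAA was found in Fosl2 and Jund, whose window lies upstream of its annotated gene, and TTCNNNGAA in Batf3. The TATA box, TATAAA, was found in Fos and Junb and in 13.6% of all promoters. The AP-1 site TGANTCA (7.81% of all promoters) and the cyclic AMP response element TGACGTCA (1.79%) were found in none of the 8 windows. These matches describe letters and do not show binding.

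Of the 10 genes, 8 passed the filter of a mean normalized count of at least 10 and were tested. In Irf1-/- cells Batf, Batf3, Fosl1 and Fosl2 rose, no gene fell at the threshold, and Fos, Jun, Junb and Jund were not called. Across all genes, 23.7% of the 11379 tested were called by limma at an adjusted p below 0.05, 11.4% higher and 12.4% lower in Irf1-/- cells. The 3 WT and 3 Irf1-/- values did not overlap for 4 of the 8 tested genes, against 40.5% of all tested genes. The median log2 fold change of the 8 was 0.37 and that of all tested genes was 0.00. All 4 calls held without Irf1-/- replicate 2, the library with the highest myeloid markers. Irf1-/- replicate 1, kept in that fit, held Lyz2 at 134 and Cd14 at 41.8, above every WT library. In Irf1-/- replicate 3 Lyz2 was at 7.03 and Cd14 at 3.83. The part of myeloid cells in these differences was not tested. In these bulk samples more RNA per cell and more cells with the RNA cannot be told apart.

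**Figure D1:**
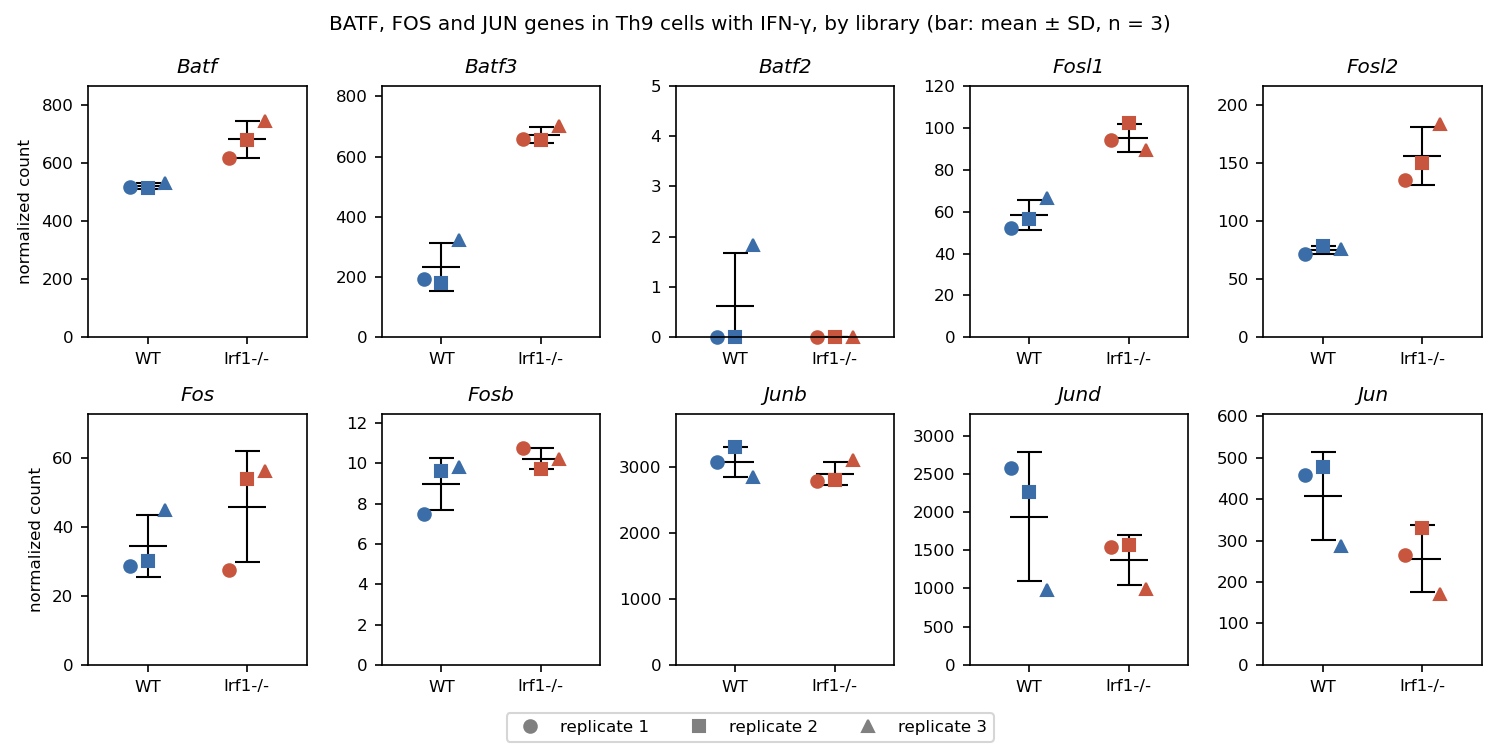
Normalized counts (y axis, from 0, a separate scale for each gene) of the 10 genes in each library, with blue for WT and red for Irf1-/-, a symbol for each replicate, and bars for the mean ± SD (n = 3). The points of Batf, Batf3, Fosl1 and Fosl2 lie higher in all 3 Irf1-/- libraries than in all 3 WT libraries, while those of the other genes overlap.

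Batf3, the BATF protein that pairs with JUN and IRF8 in dendritic cells and is also induced in activated T helper cells, rose over all 6 libraries by more than the other members, though not in replicate 3 alone (1.11 for Batf3 and 1.27 for Fosl2, log2). Its gene (ENSMUSG00000026630, chr1:191097847-191108945) had normalized counts of 192, 180.3 and 324 in WT replicates 1, 2 and 3, and of 658, 656 and 703 in Irf1-/- replicates 1, 2 and 3. Every Irf1-/- library was thus at least 2 times as high as the highest WT library, and WT replicate 3 stood above the other WT libraries. The mean rose 2.90-fold, from 232 ± 79.7 to 672 ± 26.6 (SD, n = 3), with a log2 fold change of 1.58 (SE 0.18, 95% interval 1.19 to 1.97, adjusted p = 0.000197, limma). The difference was 1.05 on the log2 scale among the 4 libraries with Xist (adjusted p = 0.000365, limma) and 1.81 among replicates 1 and 2. Of the 6 dendritic markers, Clec9a was at 0 reads in all libraries, and Zbtb46 (20.9 to 44.9 normalized counts in WT, 25.6 to 26.3 in Irf1-/- libraries) and Xcr1 (1 or 2 reads in every library) overlapped between genotypes. Siglech had 1 read, in Irf1-/- replicate 1. Itgax had 0, 0 and 0 reads in WT and 1, 1 and 3 in Irf1-/- libraries, and Flt3 had 1, 0 and 0 reads and 3, 2 and 3 reads, both without overlap. The part of dendritic cells in the difference of Batf3 was not tested.

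Batf, the factor required for several IL-4- and TGF-β-driven T helper subsets, rose less. The paper, by contrast, reports no significant effect of IRF1 deficiency on BATF in Th9 cells, a separate measurement that was not re-examined here. In these libraries the counts of Batf (ENSMUSG00000034266, chr12:85686669-85709087) were 518, 516 and 533 in WT and 618, 682 and 747 in Irf1-/- libraries. The WT values lay close together, the Irf1-/- values spread more, and the groups did not overlap. The mean rose 1.31-fold, from 522 ± 9.37 to 683 ± 64.3, with a log2 fold change of 0.38 (SE 0.08, 95% interval 0.21 to 0.55, adjusted p = 0.00559, limma). With the 4 Xist libraries alone the difference was 0.35 and was not called (adjusted p = 0.112, limma).

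Batf2, an interferon-inducible member known from macrophages, was at the limit of detection. It had 3 reads in WT replicate 3, a normalized count of 1.84, and 0 reads in the other 5 libraries. It was not tested and no fold is given. Its exons overlap those of Arl2 on the opposite strand.

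The balance of Batf3 and Batf was followed within each library. Per kilobase of exon, the Batf3 level relative to Batf was 0.327, 0.308 and 0.535 in WT and 0.936, 0.846 and 0.828 in Irf1-/- libraries. In Irf1-/- cells Batf3 thus approached the level of Batf. The ratios did not overlap, and the exact two-sided permutation test gave p = 0.1, the smallest p that 3 against 3 libraries allow (adjusted p = 0.2 over 6 ratios). Batf3 made up 24.6%, 23.5% and 34.8% of BATF-family RNA per kilobase in WT and 48.4%, 45.8% and 45.3% in Irf1-/- libraries.

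Among the FOS genes, both FOS-like members rose, Fos was not called and Fosb was too low to be tested. Fosl2, which encodes FRA2, a long-lived FOS protein that acts in T helper differentiation, had counts of 71.1, 78.1 and 75.6 in WT and 135, 149.8 and 183 in Irf1-/- libraries (ENSMUSG00000029135, chr5:32135801-32157842). All 3 Irf1-/- libraries lay well above WT, and replicate 3 was the highest. The mean rose 2.08-fold, from 75.0 ± 3.55 to 156 ± 24.8, with a log2 fold change of 1.04 (SE 0.14, 95% interval 0.73 to 1.34, adjusted p = 0.000551, limma). Among the 4 Xist libraries it was 1.02 (adjusted p = 0.0156, limma).

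Fosl1, which encodes FRA1, had counts of 52.4, 56.5 and 66.4 in WT and 94.3, 103 and 89.5 in Irf1-/- libraries (ENSMUSG00000024912, chr19:5447547-5455946). The groups did not overlap, but they came closest in replicate 3, where WT was highest and Irf1-/- lowest. The mean rose 1.63-fold, from 58.4 ± 7.18 to 95.5 ± 6.65, with a log2 fold change of 0.70 (SE 0.15, 95% interval 0.38 to 1.03, adjusted p = 0.00683, limma). It was 0.52 among the 4 Xist libraries and was not called there (adjusted p = 0.162, limma). Exons of Ccdc85b overlap Fosl1 on the other strand, and since the sources do not state whether counting used strand, the reads of the pair cannot be told apart. Ccdc85b itself had counts of 168, 182 and 73.1 in WT and 149, 147 and 92.0 in Irf1-/- libraries, a log2 fold change of -0.05 (adjusted p = 0.930, limma).

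Fos, the rapidly induced founding member, was low 2 days after the start of culture. It had 28.7, 30.1 and 44.9 in WT and 27.5, 54.1 and 56.2 in Irf1-/- libraries. The groups overlapped, because Irf1-/- replicate 1 lay below every WT library. The log2 fold change was 0.36 with a 95% interval from -0.29 to 1.01 (adjusted p = 0.411, limma), so that a rise of similar size to that of Fosl1 was within the interval. Leaving out 1 library moved it to between 0.18 (without Irf1-/- replicate 3) and 0.69 (without Irf1-/- replicate 1), with values of 0.21 without Irf1-/- replicate 2 and 0.56 without WT replicate 3, none of them called. Among the 4 Xist libraries it was -0.035 (adjusted p = 0.971, limma). Fosb, at 7.49, 9.62 and 9.84 in WT and 10.7, 9.71 and 10.2 in Irf1-/- libraries, fell under the filter and rested on 6 to 16 reads a library.

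No JUN gene was called in the main fit, though a fit with a replicate block called Jun and Jund lower. The widths of the JUN intervals differed. Junb, a JUN protein that pairs with BATF at IL-4- and IL-17-producing T helper loci, had the narrowest interval. It had 3075, 3308 and 2851 in WT and 2799.8, 2812.5 and 3107 in Irf1-/- libraries, which overlapped. Its log2 fold change was -0.08 (SE 0.07, 95% interval -0.23 to 0.07, adjusted p = 0.412, limma), so a change above 0.23 on the log2 scale in either direction lay outside the interval. Exons of Prdx2 overlap Junb on the opposite strand, and the reads of the pair, Junb and Prdx2, cannot be told apart.

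Jun, the transactivating partner of FOS in the classical AP-1 dimer, had 458, 478 and 286 in WT and 265, 331 and 171 in Irf1-/- libraries. In each genotype replicate 3 was the lowest, and WT replicate 3 lay inside the Irf1-/- range. The Irf1-/- mean was 62.7% of the WT mean (256 ± 80.8 against 408 ± 105), with a log2 fold change of -0.69 (SE 0.24, 95% interval -1.21 to -0.16, adjusted p = 0.0582, limma), just short of the threshold. Without WT replicate 3 the difference was -0.92 and was called (adjusted p = 0.00529, limma), as it was without Irf1-/- replicate 2 (-0.90, adjusted p = 0.0377, limma). It was not called without Irf1-/- replicate 3 (-0.42), WT replicate 1 (-0.58), WT replicate 2 (-0.55) or Irf1-/- replicate 1 (-0.74). With the Y-linked covariate it was -0.24 (adjusted p = 0.364, limma). A fit with a replicate block called it lower (-0.69, adjusted p = 1.28e-06, limma). Among the 4 Xist libraries it was -0.22 (adjusted p = 0.703, limma). The antisense gene Junos overlaps Jun and held 1.39 to 7.16 normalized counts.

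Jund, a JUN protein present in resting cells, had the widest spread. Its counts were 2573, 2266 and 980.4 in WT and 1543, 1569.9 and 992 in Irf1-/- libraries. Replicate 3 was far below the others in both genotypes, and the WT and Irf1-/- values of replicate 3 nearly coincided. The log2 fold change was -0.42 (SE 0.30, 95% interval -1.09 to 0.25, adjusted p = 0.356, limma). It was -0.85 without WT replicate 3 (adjusted p = 0.00166, limma) and -0.63 among replicates 1 and 2 alone (adjusted p = 1.1e-15, limma), a fit in which 7 of the tested genes of the family, all but Fos, were called, against 34.2% of all genes. The sign turned among the 4 Xist libraries (0.45, adjusted p = 0.230, limma, a fit that called 7.12% of all genes and 2 of the family, Batf3 and Fosl2) and when the Y-linked level entered as covariate (0.28). Without WT replicate 3, or with replicates 1 and 2 alone, every WT library carried Y-linked RNA and every Irf1-/- library Xist, so that in those fits sex and genotype cannot be told apart for any gene. The direction of Jund therefore depended on which libraries were compared.

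The difference of replicate 3 from replicates 1 and 2 varied in size and sign among the genes. On the log2 scale it was -1.30 in WT and -0.65 in Irf1-/- cells for Jund, -0.71 and -0.79 for Jun, and 0.59 and 0.53 for Fos, against a median over all tested genes of 0.02 and 0.01. For Batf3 it was 0.80 in WT and 0.10 in Irf1-/- cells. Batf, Junb, Fosl1 and Fosl2 lay between -0.16 and 0.37. Replicate 3 libraries were also the most deeply sequenced (13348230 and 12423511 reads on genes), and the transcripts of Jund had a GC content of 67.15%, above that of 99.88% of tested genes. Junb (62.58%) and Batf3 (60.72%), which rank next among the 8 genes, differed in replicate 3 by -0.16 and 0.15 and by 0.80 and 0.10 in WT and Irf1-/- cells. The 1133 tested genes of highest GC content had median differences of -0.07 and -0.09. Within WT, replicate 3 was also the one library with Xist and without Y-linked RNA, whereas all 3 Irf1-/- libraries held Xist. The part of depth, base composition and sex in these differences was not tested.

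**Figure D2:**
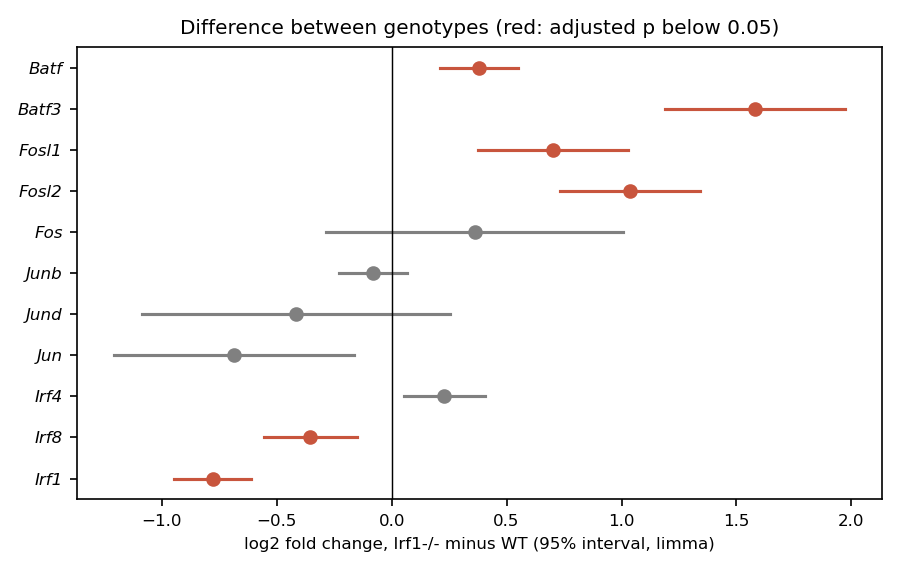
Log2 fold changes, Irf1-/- minus WT, of the 8 tested genes and of Irf4, Irf8 and Irf1 (points), with 95% intervals from limma (lines), in red where the adjusted p was below 0.05. The intervals of Batf, Batf3, Fosl1 and Fosl2 lie to the right of 0, Junb has a narrow interval around 0, and those of Jund and Fos are wide and include 0.

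How the 8 differences held under each setting is drawn in the grid of settings. Batf3 and Fosl2 were called higher in all 19 tested alternatives, with log2 fold changes from 1.05 to 1.85 and from 0.92 to 1.27. Batf and Fosl1 were called in 18 of 19, the exception being the 4 Xist libraries, and ranged from 0.31 to 0.49 and from 0.42 to 0.84. The ranges include a comparison of replicate 3 alone, which has no test. Jun was called lower in 5 of 19, Jund in 3, Junb in 1 and Fos in 0 of 18.

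**Figure D3:**
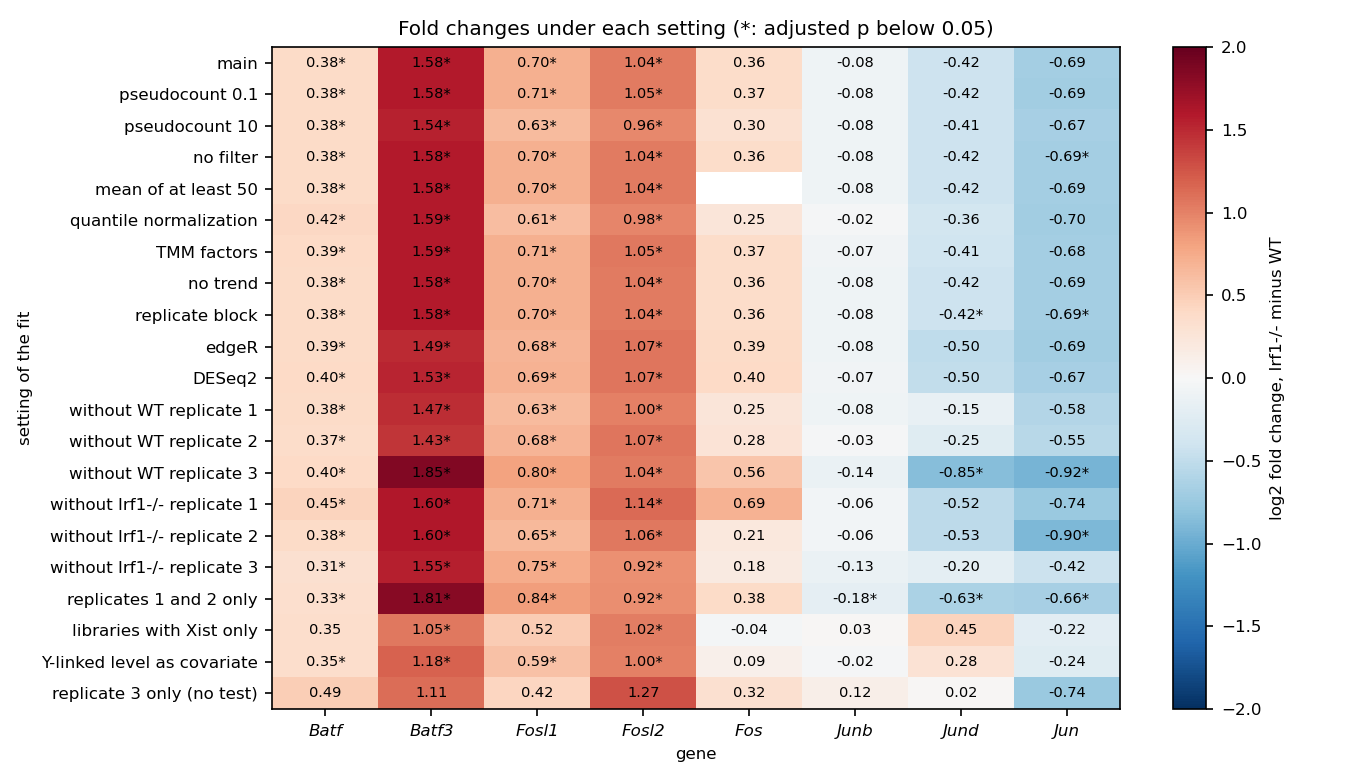
Grid of log2 fold changes, Irf1-/- minus WT (colour scale from -2 to 2), with a row for each setting of the fit and a column for each of the 8 tested genes, asterisks for an adjusted p below 0.05, and a blank where a gene did not pass the filter. The columns of Batf, Batf3, Fosl1 and Fosl2 are red throughout, and the column of Jund changes colour in the rows for the Xist libraries and the Y-linked covariate.

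Ordered by level per kilobase of exon, Junb and Jund came first, Batf, Batf3 and Jun followed, and the FOS genes were lowest apart from Batf2. In WT cells the mean normalized counts per kilobase were 1338 ± 99.4 for Junb, 1163 ± 507 for Jund, 371 ± 6.66 for Batf, 145 ± 49.9 for Batf3, 128 ± 33.1 for Jun, 28.7 ± 3.53 for Fosl1, 14.7 ± 3.81 for Fos, 7.74 ± 0.37 for Fosl2 and 1.44 ± 0.21 for Fosb. Junb and Jund overlapped between libraries, as did Batf3 and Jun, while the other neighbours in this order did not overlap. In Irf1-/- cells the order was 1263 ± 75.4 for Junb, 820 ± 195 for Jund, 486 ± 45.7 for Batf, 421 ± 16.7 for Batf3, 80.2 ± 25.3 for Jun, 47.0 ± 3.27 for Fosl1, 19.5 ± 6.82 for Fos, 16.1 ± 2.57 for Fosl2 and 1.64 ± 0.08 for Fosb. Batf3 now stood apart from Jun and overlapped Batf between libraries, although it was below Batf within each, and Fosl2 overlapped Fos. Exon length is the union of all annotated exons, so that genes with long or rarely used exons, such as Fosl2, read low on this scale.

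**Figure D4:**
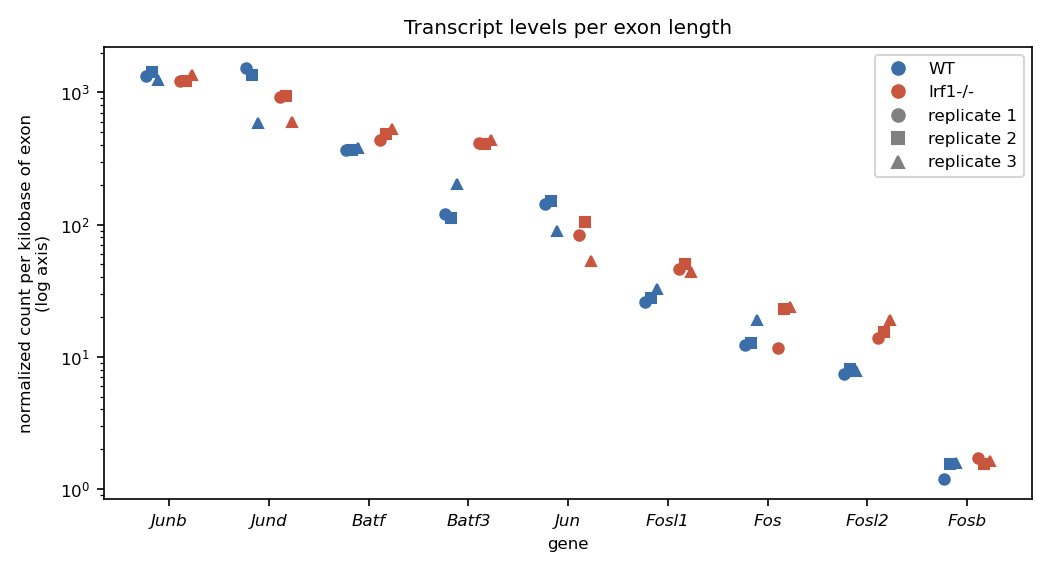
Normalized counts per kilobase of exon (y axis, log scale) for 9 genes in WT (blue) and Irf1-/- (red) libraries, with a symbol for each replicate and genes ordered by the WT mean. Batf2, with reads in 1 library only, is left out. Batf3 overlaps Jun in WT cells, and in Irf1-/- cells it lies above Jun and below Batf within each library.

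Summed by family, BATF RNA per kilobase was 489, 480 and 583 in WT and 852, 896 and 972 in Irf1-/- libraries. FOS RNA was 46.5, 50.2 and 61.1 against 73.7, 90.5 and 88.5. JUN RNA was 3023, 2946 and 1917 against 2225, 2267 and 1999. BATF and FOS sums did not overlap between genotypes, whereas JUN sums did, with WT replicate 3 the lowest of all. BATF genes held 13.7%, 13.8% and 22.8% of the summed RNA of the 3 families in WT and 27.0%, 27.5% and 31.8% in Irf1-/- libraries.

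Of the genes for IRF4 and IRF8, the IRF proteins that BATF-JUN pairs recruit, Irf4 was not called and Irf8 was called lower. Irf4, essential for Th9 cells, had 9449.6, 9668 and 11769.5 in WT and 11744, 11639.7 and 12673 in Irf1-/- libraries. WT replicate 3 overlapped the Irf1-/- range, and the log2 fold change was 0.23 (SE 0.08, adjusted p = 0.0602, limma). It was 0.33 without WT replicate 3, where it was called (adjusted p = 0.00058, limma), and it was called in 5 of 19 tested alternatives, which include DESeq2 (adjusted p = 0.0257). It was 0.029 among the 4 Xist libraries (adjusted p = 0.875, limma). Irf8, an interferon-inducible gene, had 14732, 14249.7 and 13379 in WT and 12148, 11885 and 9323 in Irf1-/- libraries, a non-overlapping difference of -0.35 (SE 0.09, adjusted p = 0.0178, limma). This call was lost without WT replicate 1 (-0.32, adjusted p = 0.0773, limma) and without WT replicate 2 (-0.35, adjusted p = 0.067, limma). It was also lost among the 4 Xist libraries (-0.28, adjusted p = 0.235, limma) and without a trend (-0.35, adjusted p = 0.0939, limma). Without Irf1-/- replicate 3, the lowest library, the difference was -0.23. Per kilobase, the ratio of Batf3 to Irf8 was 0.0576, 0.0559 and 0.107 in WT and 0.239, 0.244 and 0.333 in Irf1-/- libraries, and that of Batf to Irf4 was 0.158 to 0.191 and 0.184 to 0.206. The first did not overlap (exact permutation p = 0.1, adjusted p = 0.2), and the second did (exact permutation p = 0.3, adjusted p = 0.36). Of the other 3 of the 6 ratios, Fosl2 to Fosl1 did not overlap (0.239 to 0.290 in WT, 0.300 to 0.431 in Irf1-/- cells, exact permutation p = 0.1, adjusted p = 0.2). Jun to Junb and Jund to Junb overlapped (exact permutation p = 0.2 and 0.5).

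The profiles over the 6 libraries gave further neighbours, by Pearson correlation of log2 values, as a description in which both genotype and library enter. Batf was most like Ntrk3 (r = 0.998), Wdtc1 (r = 0.995) and Ube2h (r = 0.993), and among the family most like Fosl2 (r = 0.982). Batf3 was most like Pck2, Lta and Trib3 (r = 0.999 for each), and in the family Fosl1 (r = 0.974). Pck2 and Trib3 are known as genes of the amino acid stress response, and Lta encodes lymphotoxin-α. Fosl1 was most like Actr1a (r = 0.998), Rnaseh2a and Twf2 (r = 0.997 for both), and Fosl2 most like H2-Q7, Dtx3 (r = 0.999 for both) and Soat1 (r = 0.998). Such values were common, since between 198 (Batf) and 415 (Batf3) tested genes had r above 0.95 with one of these 4.

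Other bZIP genes, some of which can pair with or compete with AP-1 proteins, moved in both directions. The list, like those that follow, was written from general knowledge of the field. Of 34 genes, 28 were tested, 11 rose, 5 fell and 12 were not called, with a median log2 fold change of 0.03, where 11.4% of all tested genes rose and 12.4% fell. Leaving out 1 library gave 5 to 13 genes higher and 2 to 7 lower, against 805 to 1380 and 824 to 1471 of all tested genes. Maf, the c-MAF factor of IL-10- and IL-4-producing T cells, rose most, from 79.9, 61.3 and 54.1 in WT to 393, 322 and 263 in Irf1-/- libraries (log2 fold change 2.31, adjusted p = 1.52e-05, limma). Nfil3, a factor that acts in cytokine expression of T helper cells, had 175, 153 and 282 in WT and 396, 445 and 553 in Irf1-/- libraries (1.23, adjusted p = 0.00176, limma). All 3 Irf1-/- libraries were above all WT libraries for both genes, and both calls held in all 19 tested alternatives. Jdp2, a repressor that dimerises with JUN, had 32.4, 30.1 and 38.7 in WT and 60.9, 92.9 and 68.4 in Irf1-/- libraries, a rise of 1.10 on the log2 scale. Ddit3, which encodes the stress factor CHOP (0.998), and Dbp, a clock-controlled factor (0.82), rose as well. The call of Ddit3 was lost in 6 of 19 alternatives, among them the fits without WT replicate 1 or 2, and its log2 fold change ranged down to 0.43. That of Dbp was lost in 3 of 18, which were DESeq2, the Xist libraries and the fit without Irf1-/- replicate 2.

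Bach2, a repressor that competes for AP-1 sites in T cells, fell with a call that held in 18 of 19 tested alternatives (log2 fold change -0.47, adjusted p = 0.00140, limma). It had 1979, 1998 and 1854 in WT and 1363, 1293 and 1568 in Irf1-/- libraries, without overlap. Atf3 fell by 0.51 on the log2 scale, from 695, 724 and 1066 to 534, 539 and 639.7, a call that was lost without Irf1-/- replicate 1 or 2 and without a trend. Without WT replicate 3, the highest library, its log2 fold change was -0.32. Creb3 (-0.38), Creb1 (-0.27) and Cebpz (-0.23, named with the C/EBP genes but not itself a bZIP protein) fell by less. The call of Creb3 was lost in 4 and that of Creb1 in 3 of the 6 fits that left out 1 library, and that of Cebpz without WT replicate 2. Among the 4 Xist libraries, Maf and Nfil3 were called higher and Atf3 lower, and the calls of Jdp2 and Bach2 were lost.

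**Figure D5:**
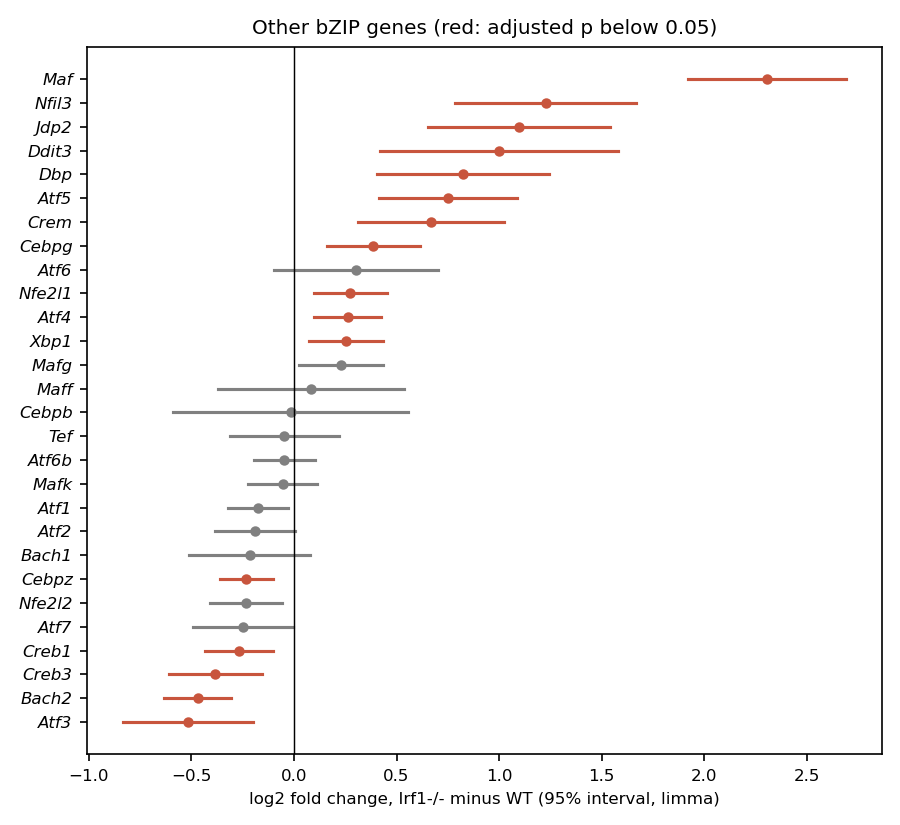
Log2 fold changes, Irf1-/- minus WT, of the 28 tested genes of the list of other bZIP genes (points) with 95% intervals from limma (lines), in red where the adjusted p was below 0.05. Maf lies farthest to the right at 2.31 and Atf3 farthest to the left at -0.51, and 11 red points lie above 0 and 5 below it.

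Kinases, phosphatases and ubiquitin ligases that act on AP-1 proteins moved in both directions. Of 31 names in this list 29 were tested, 2 rose, 7 fell and 20 were not called, with a median log2 fold change of -0.05, where 23.7% of all tested genes were called. The genes that rose were Mapk11, a p38 kinase (0.55), and Mapk3, which encodes ERK1 (0.37, a call lost without WT replicate 1 or 2 or Irf1-/- replicate 2, without a trend, among the Xist libraries and with the Y-linked covariate). Map2k4, an activator of the JNK kinases that phosphorylate JUN, fell by 0.35, and 4 phosphatases of MAP kinases fell with it, namely Dusp5 (-0.50), Dusp10 (-0.34), Dusp4 (-0.34) and Dusp16 (-0.32). The calls of Dusp10 and Dusp16 were lost in 5 of the 6 fits that left out 1 library. Mapk11 and Map2k4 were called in all 19 tested alternatives, and they were the genes of this list called among the 4 Xist libraries (1 higher, 1 lower).

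Immediate early genes outside the FOS and JUN families were examined next. All 17 were tested, of which 1 rose, 6 fell and 10 were not called, with a median log2 fold change of -0.23, beside the same 11.4% and 12.4% of all tested genes. Ier3, a regulator of cell survival, rose by 1.30. Nr4a3, a nuclear receptor induced by T-cell receptor signals, had 7683, 7598 and 8351 in WT and 4206, 4259 and 4892 in Irf1-/- libraries, and the groups did not overlap (log2 fold change -0.83, adjusted p = 2.65e-05, limma). Nr4a2 (-0.85), Gadd45b (-0.47), Klf6 (-0.39) and Klf2, a marker of quiescent T cells (-1.72), fell too, the last with a call that was lost without WT replicate 1 or 2. Among the 4 Xist libraries no gene of this list was called higher and 2 were called lower, Nr4a3 and Gadd45b, while the calls of Ier3, Nr4a2, Klf6 and Klf2 were lost.

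NFAT proteins bind next to AP-1 at cytokine genes. Of the 4 NFAT genes Nfatc2 rose by 0.31 and Nfatc3 fell by 0.35 on the log2 scale, and Nfatc1 (-0.12) and Nfat5 (-0.04) were not called. The call of Nfatc2 was lost without WT replicate 2, and neither call held among the 4 Xist libraries. The median of the 4 was -0.08 against -0.004 over all tested genes, of which 11.4% rose and 12.4% fell.

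T-cell genes known as targets of BATF-IRF4 or AP-1 did not move together. Of 28 such genes 22 were tested, 3 rose, 6 fell and 13 were not called, with a median of -0.01 against 0.00 over all tested genes, of which 23.7% were called. Il9, the cytokine that defines Th9 cells, had 852, 939 and 1272 in WT and 3201, 3283 and 3726 in Irf1-/- libraries (log2 fold change 1.75, adjusted p = 9.25e-06, limma). Il10 rose from 2, 3 and 5 reads to 17, 27 and 40 reads (normalized counts of 2.50 to 3.61 and of 20.3 to 37.4), and Rora, a nuclear receptor, rose by 0.60. Il4 fell by 2.15, Prdm1 by 1.33, Il2, a classical AP-1 and NFAT target, by 1.15, Bcl6 by 0.80 and Cd44 by 0.67. Il4 (chr11:53602982-53618669) lies near the targeted gene Irf1 (chr11:53770014-53778374), and Il13 and Il5, which lie between them, were not called. The part of the altered locus in the fall of Il4 was not tested. Among the 4 Xist libraries 2 genes of this list were called higher and 2 lower, and the calls of Rora, Il2 and Bcl6 were lost. The call of Bcl6 was also lost without WT replicate 1 or 2, while Il9 and Cd44 were called in all 19 tested alternatives. Il10, Il4 and Prdm1 passed the filter only through the genotype in which they were higher, their means in the other being 3.06, 9.31 and 5.37 normalized counts. The call of Prdm1 held in 8 of 13 tested alternatives and was lost with no filter, with DESeq2, with the Y-linked covariate and without Irf1-/- replicate 1 or 3.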

How the data were processed

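RNA-Seq of 6 libraries was used. The authors aligned reads to GRCm38 with STAR 2.4.0b, used featureCounts with Ensembl genes, and scaled each library with DESeq2 1.12.3. The deposited signal is the resulting normalized count, the number of reads over the size factor. Whether counting used strand was not given in the sources used here. Whole reads were recovered for 100% of non-zero values (tolerance 0.01 of a read), and 3 reads set the limit for a gene at 0. These limits cover counting error only.

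Genotypes, taken from the labels, were compared with limma 3.58.1 (R 4.3.3). Its eBayes step allowed the variance to follow the mean, the values were log2(normalized count + 1), and 11379 genes whose mean reached 10 were tested. P-values were adjusted by Benjamini-Hochberg over all 11379, with a threshold of 0.05. This scale understates the change of low genes. Count models were fitted on the recovered reads as alternatives, since the deposited values themselves are scaled. P-values set the difference between genotypes against the spread between these libraries, with variances moderated over all tested genes. The fit was also run on simulated counts with known changes, whose means and dispersions came from these data.

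As alternatives, the pseudocount was set to 0.1 or 10, the filter was dropped or raised to 50, values were quantile normalized or scaled by TMM, the trend was dropped, and a replicate block was added. Recovered reads were also fitted with edgeR 4.0.16 and with DESeq2 1.42.0. Further fits used each library left out in turn, replicates 1 and 2 only, replicate 3 only, the 4 libraries with Xist, and the summed Y-linked level as a covariate. Gene positions came from GENCODE on GRCm38, promoters from RefSeq on GRCm38.p6. Named were the 10 genes, Irf1, Irf4 and Irf8, up to 5 called genes in each direction of each list by size of fold change, the 3 genes most like each called gene by Pearson correlation, and, after their values were seen, genes that overlap one of the 10, genes of the NFAT list that were not called, and single markers of other cells. The 10 genes and the lists were chosen with earlier results of these data known. One name of the kinase list, Rfwd2, matched no gene. The ChIP-Seq part of the study was not used.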

Additional observations from a re-analysis of the deposited data

How the results depend on the processing

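The 4 calls of Batf, Batf3, Fosl1 and Fosl2 held in the fits with other pseudocounts, filters, normalizations, no trend, edgeR, DESeq2, each library left out and the Y-linked covariate. The number of called genes of the family was 7 with replicates 1 and 2 only and 2 with the 4 Xist libraries, in which WT has 1 library that is assumed to vary like the others. In that fit Batf was 0.35 (adjusted p = 0.112, limma) and Fosl1 0.52 (adjusted p = 0.162, limma), and Fos (-0.035), Junb (0.026) and Jund (0.45) changed sign, as Jund did with the Y-linked covariate (0.28). Jun was called with no filter (-0.69), and with replicates 1 and 2 only Jun (-0.66), Junb (-0.18) and Jund (-0.63) were called lower. Replicate 3 alone, with no test, gave 0.49 for Batf, 1.11 for Batf3, 0.42 for Fosl1, 1.27 for Fosl2 and 0.12 for Junb.

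Of all tested genes, 2699 were called, 1293 higher and 1406 lower. Without a trend 1735 were called (807 lower), with the 4 Xist libraries 810 (407 higher, 403 lower) and with the replicate block 4009 (1893 higher, 2116 lower). Leaving out each library in turn gave 1629 to 2807 called genes, 805 to 1380 higher and 824 to 1471 lower, 4 to 6 called genes of the family, and log2 fold changes of 0.18 to 0.69 for Fos, -0.14 to -0.03 for Junb, -0.92 to -0.42 for Jun and -0.85 to -0.15 for Jund. The cause of these shifts was not tested.

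Same-numbered replicates were not shown to be paired: the correlations of their deviations from the group means were 0.09, 0.27 and 0.32, and every Irf1-/- library correlated best with the WT library of its own number. With the replicate block Jun (-0.69, adjusted p = 1.28e-06, limma) and Jund (-0.42, adjusted p = 0.000737, limma) were called lower, which made 6 called genes of the family, where 4009 of all 11379 were called. In the 250 bases before the start alone, the same motif matches were found except the TATA box of Junb. Counts of 6 to 16 reads limit Fosb, and 0 to 3 reads limit Batf2.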
